A study of Arabidopsis thaliana with 28 samples.

Results

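The transcripts described here are the probe sets whose level was low in both N lines, BAM7-N_Ox and BAM8-N_Ox, among shoots of Arabidopsis thaliana lines that lack or carry extra forms of BAM7 and BAM8. A probe set is the array's unit of measurement for a transcript. It was taken when its mean log2 level over a baseline of 6 arrays (wild type, BAM7_Ox and BAM8_Ox) was at least 5 and when the mean of each N line lay at least 0.5 below that baseline on the log2 scale. The selection found 70 of 22746 probe sets, or 0.68% of the 10294 with a baseline of 5 or more. The selection left out 2 probe sets by name. The members were chosen by the measured levels on these 10 arrays, so the low level in the N lines is a description and was not tested. No annotation used here links a probe set to a gene, so members are given by their IDs, no gene list was counted, and neither the levels of BAM7 and BAM8 nor markers of the shoot could be read by name.

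BAM7 and BAM8 are nuclear proteins. They join a domain that resembles beta-amylase, the enzyme that releases maltose from starch, to a DNA-binding domain of the type found in BZR1, a transcription factor of brassinosteroid signalling. Brassinosteroids are plant steroid hormones that promote cell expansion, and factors of the BZR1 type can raise some genes and lower others. The series asks what the enzyme-like domain contributes to recognising DNA and to activating transcription.

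All plants were of accession Col-0, untreated and 3 weeks old, and each of the 28 arrays measured shoot RNA from a pool of 14 plants. The 14 groups held 2 biological replicates each. They were wild type, the single mutants bam7 and bam8, the double mutant bam7 bam8, the lines BAM7_Ox and BAM8_Ox, and 8 Ox lines with a suffix (BAM7-DNA_Ox, BAM8-DNA_Ox, BAM7-Cat_Ox, BAM8-Cat_Ox, BAM7-Lig_Ox, BAM8-Lig_Ox, BAM7-N_Ox and BAM8-N_Ox). The labels do not say what the suffixes mean, which promoter drives a construct, which background carries it, or whether a line is 1 transformant. In whole shoots, fewer cells of a type and less RNA per cell cannot be told apart. Replicate arrays correlated with Pearson r between 0.990 in BAM7-Cat_Ox and 0.997 in bam8 across probe sets, which are not independent replicates. The replicates of BAM7-Cat_Ox also differed most at the 70 members, by a median of 0.248 log2 units, against 0.127 to 0.227 in the other groups.

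The members ranged from moderately to highly expressed. Their baseline lay between 5.16 and 10.99 on the log2 scale, with a median of 7.09, which is 136 intensity units. On each N line array 4 to 6 of the 70 lay below that array's own median, and none lay below its 25th percentile. The low levels were thus above each array's 25th percentile. The values carry no detection calls, so how near to background the lowest of them lay was not tested.

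Both N lines were low to a similar extent. The members' median difference from the baseline was -0.83 in BAM7-N_Ox and -0.78 in BAM8-N_Ox, and it was -0.81 and -0.83 on the replicates of BAM7-N_Ox and -0.78 and -0.80 on those of BAM8-N_Ox. Every member lay below its baseline on each of the 4 N line arrays. A difference of 1 or more, which is at least a halving, was reached by 25 members in BAM7-N_Ox, by 21 in BAM8-N_Ox and by 11 in both. The 70 members made up 28.1% of the 249 probe sets at least 0.5 below the baseline in BAM7-N_Ox. The members made up 35.7% of the 196 in BAM8-N_Ox. Among all probe sets with a baseline of 5 or more, 1.904% lay that low in BAM8-N_Ox and 2.419% in BAM7-N_Ox. Both lists share the baseline arrays, and the part of this in the overlap was not tested. The member closest to the threshold, 252906_AT, stood at -1.03 in BAM7-N_Ox and -0.51 in BAM8-N_Ox. The closest probe set outside, 259105_AT, stood at -0.78 and -0.4998.

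**Figure D1:**
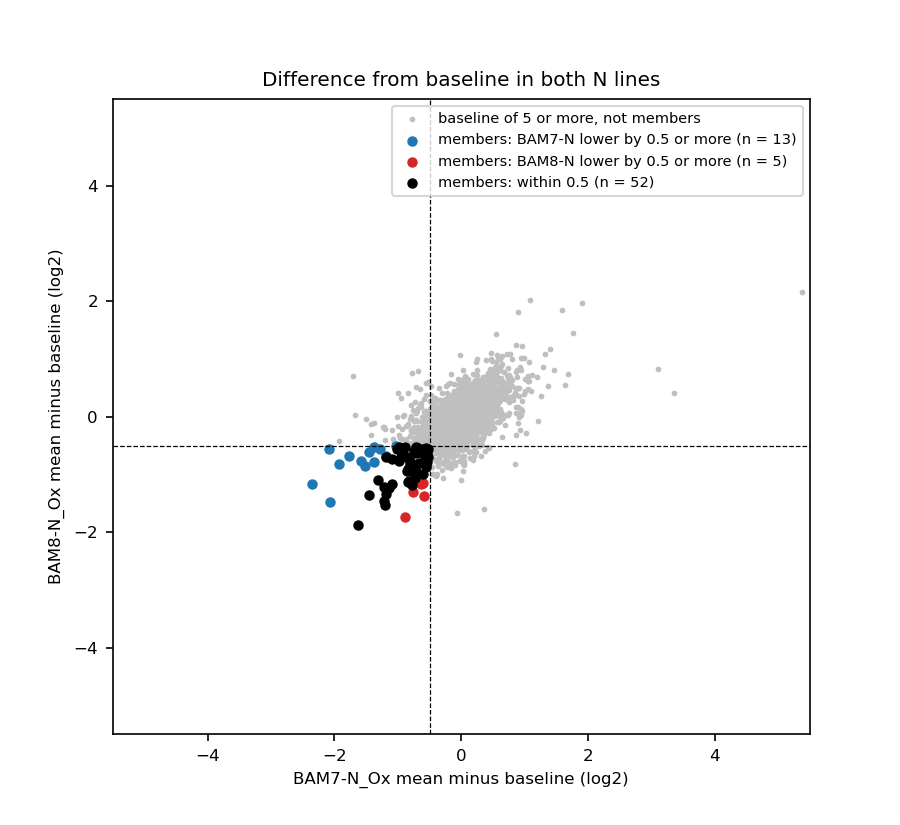
Difference of BAM7-N_Ox (horizontal axis) and of BAM8-N_Ox (vertical axis) from the baseline in log2 units, each point being 1 probe set with a baseline of 5 or more, means of 2 arrays against the mean of 6. The 70 members fill the lower left corner set by the dashed lines at -0.5, with 13 members lower in BAM7-N_Ox by 0.5 or more in blue and 5 lower in BAM8-N_Ox by as much in red.

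The lowest mean of both N lines against the baseline was that of 257066_AT. Its log2 level was 5.92 and 5.72 in BAM7-N_Ox and 6.34 and 6.47 in BAM8-N_Ox. In the baseline groups it was 7.70 and 7.95 in wild type, 7.49 and 7.85 in BAM7_Ox, and 8.34 and 8.00 in BAM8_Ox. All 4 N line arrays lay below all 6 baseline arrays, and the group means differed from the baseline by -2.07 in BAM7-N_Ox (4.19-fold lower) and -1.48 in BAM8-N_Ox (2.8-fold lower). On the 18 arrays of the 9 groups that did not enter the selection, 257066_AT ranged from 7.10 to 8.55 with a median of 8.13, so no other array reached the level of the N lines. The lowest 2 of these 18 values, 7.10 and 7.18, were those of BAM7-Lig_Ox.

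For 254862_AT, the next in order, the 2 replicates of BAM8-N_Ox lay apart. Its log2 level was 5.95 and 5.65 in BAM7-N_Ox and 7.53 and 6.46 in BAM8-N_Ox, against a baseline of 8.16. The 18 arrays outside the selection lay between 8.05 and 8.85, with a median of 8.40. The 4 N line arrays were thus the lowest 4 of the 28, with BAM7-N_Ox the lower line of the pair.

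Members differed in which N line was lower. BAM7-N_Ox was the lower line at 35 members and BAM8-N_Ox at 35, and the falls in both lines correlated weakly across the 70 members (Pearson r = 0.26, a description, since both falls are taken from the same baseline and the selection sets an upper limit on each). At 52 members the lines lay within 0.5 of each other. At 13 members BAM7-N_Ox was lower by 0.5 or more, and at 5 members BAM8-N_Ox was. No test of this difference was made, since the same arrays chose the members.

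The widest gap was at 251524_AT, with log2 levels of 6.83 and 6.38 in BAM7-N_Ox and 8.50 and 7.77 in BAM8-N_Ox, while its baseline was 8.69. The replicates of BAM8-N_Ox were 8.50 and 7.77, and those of BAM8_Ox were 8.36 and 8.20, so these lines overlapped. The 18 arrays outside the selection ran from 8.43 to 9.63, with a median of 9.01. The widest gap the other way was at 256527_AT, with 8.52 and 8.20 in BAM8-N_Ox and 9.18 and 9.24 in BAM7-N_Ox. The other 24 arrays of 256527_AT were all higher, from 9.54 in BAM8_Ox replicate 2 to 10.62 in BAM8-Lig_Ox replicate 2.

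The median difference of BAM8_Ox from wild type was -0.58 over the 13 members (9 of them below wild type), -0.58 over the 5 (4 below) and -0.13 over the 52 (32 below). The 13 members that were lower in BAM7-N_Ox had a median difference from the baseline of -0.40 in BAM8_Ox, where 9 of the 13 lay below it, against 0.22 in BAM7_Ox and 0.09 in wild type. For the 5 that were lower in BAM8-N_Ox these medians were -0.28, -0.03 and 0.25. In the groups outside the selection the median of the 13 was 0.34 in bam7, 0.38 in bam8, 0.37 in bam7 bam8, 0.44 in BAM7-DNA_Ox, 0.14 in BAM8-DNA_Ox, 0.25 in BAM7-Cat_Ox, -0.07 in BAM8-Cat_Ox, 0.06 in BAM7-Lig_Ox and 0.24 in BAM8-Lig_Ox. These subsets were split off after their values were seen, and BAM8_Ox is part of the baseline that chose them, so the values are a description. The 52 members at which the N lines lay within 0.5 of each other had medians between -0.06 and 0.11 in all 12 groups other than the N lines.

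The low level was seen in the N lines and, for the members as a whole, in none of the 9 groups outside the selection. The median difference of the 70 members from the baseline was 0.09 in bam7, 0.02 in bam8, 0.04 in bam7 bam8, 0.17 in BAM7-DNA_Ox, 0.01 in BAM8-DNA_Ox, 0.09 in BAM7-Cat_Ox, 0.03 in BAM8-Cat_Ox, -0.02 in BAM7-Lig_Ox and 0.05 in BAM8-Lig_Ox. Over the 10294 probe sets with a baseline of 5 or more these medians lay between -0.04 and 0.04. On the 18 single arrays the members' median ran from -0.04 to 0.16, and no array came near the values of the N lines. The 4 N line arrays lay below all 24 other arrays at 38 of the 70 members, and this was so at 0.777% of the 10294 probe sets. Against the 18 arrays outside the selection alone, the 4 were lower at 44 members, beside 1.13% of the 10294, and against the 6 baseline arrays at 52, beside 2.74%. The N line side of these counts chose the members, so nothing is read from their excess. Some members were about as low elsewhere. Both N line means lay below every other group mean at 57 of the 70 and not at the rest. The N line means chose the members, so this count is a description, and its share over the 10294 was not computed. At 263549_AT, picked out after its values were seen, the difference from the baseline was -1.13 in BAM7-N_Ox and -1.23 in BAM8-N_Ox. It was -1.095 in bam7, -0.94 in bam8, -1.04 in bam7 bam8 and -1.14 in BAM7-DNA_Ox.

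**Figure D2:**
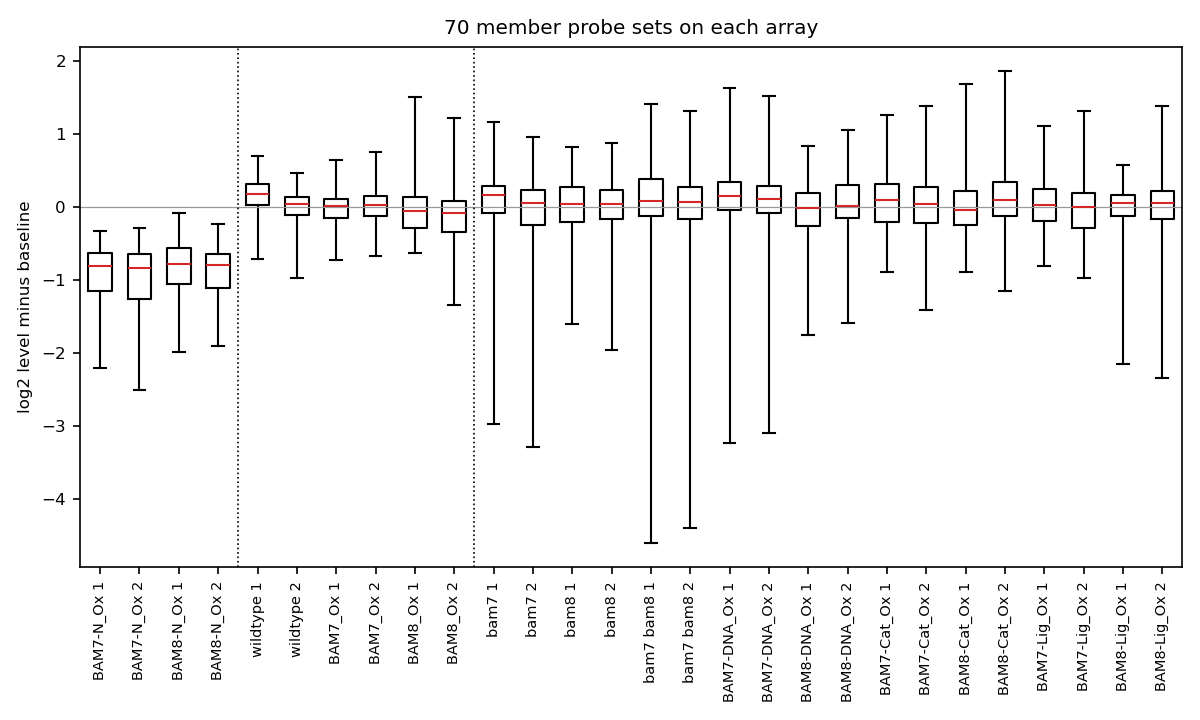
Log2 level minus baseline of the 70 members on each of the 28 arrays, with boxes from the lower to the upper quartile, red lines at the median and whiskers to the lowest and highest member. The boxes of the 4 N line arrays lie wholly below 0, while on the other 24 arrays the medians lie between -0.09 and 0.17.

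The members did not behave alike outside the N lines. At 35 of the 70 every group outside the selection stayed within 0.5 of the baseline, which is 50%, against 91.1% of the 10294 probe sets with a baseline of 5 or more. Of the other 35, 19 lay at least 0.5 below the baseline in some such group and 25 at least 0.5 above it in some. The same baseline chose the members, so a member that entered through a high baseline can lie below it in other groups. The part of this in these counts was not tested, and nothing is read from 50% against 91.1%. The SD over the 9 group means had a median of 0.20 log2 units among the members and of 0.12 among the 10294. Replicates also differed more at the members than at the 10294 in each of the 14 groups, with medians of 0.127 to 0.248 against 0.101 to 0.221, and the part of this spread in the counts below was not tested. The members as a whole shared little of their variation across the 9 group means. The median correlation over 2415 pairs of members was 0.02, with 16.1% of pairs above 0.5, against a median of 0.04 and 13.6% over all pairs of the 10294. These correlations rest on 9 points that are the same arrays for every pair.

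**Figure D3:**
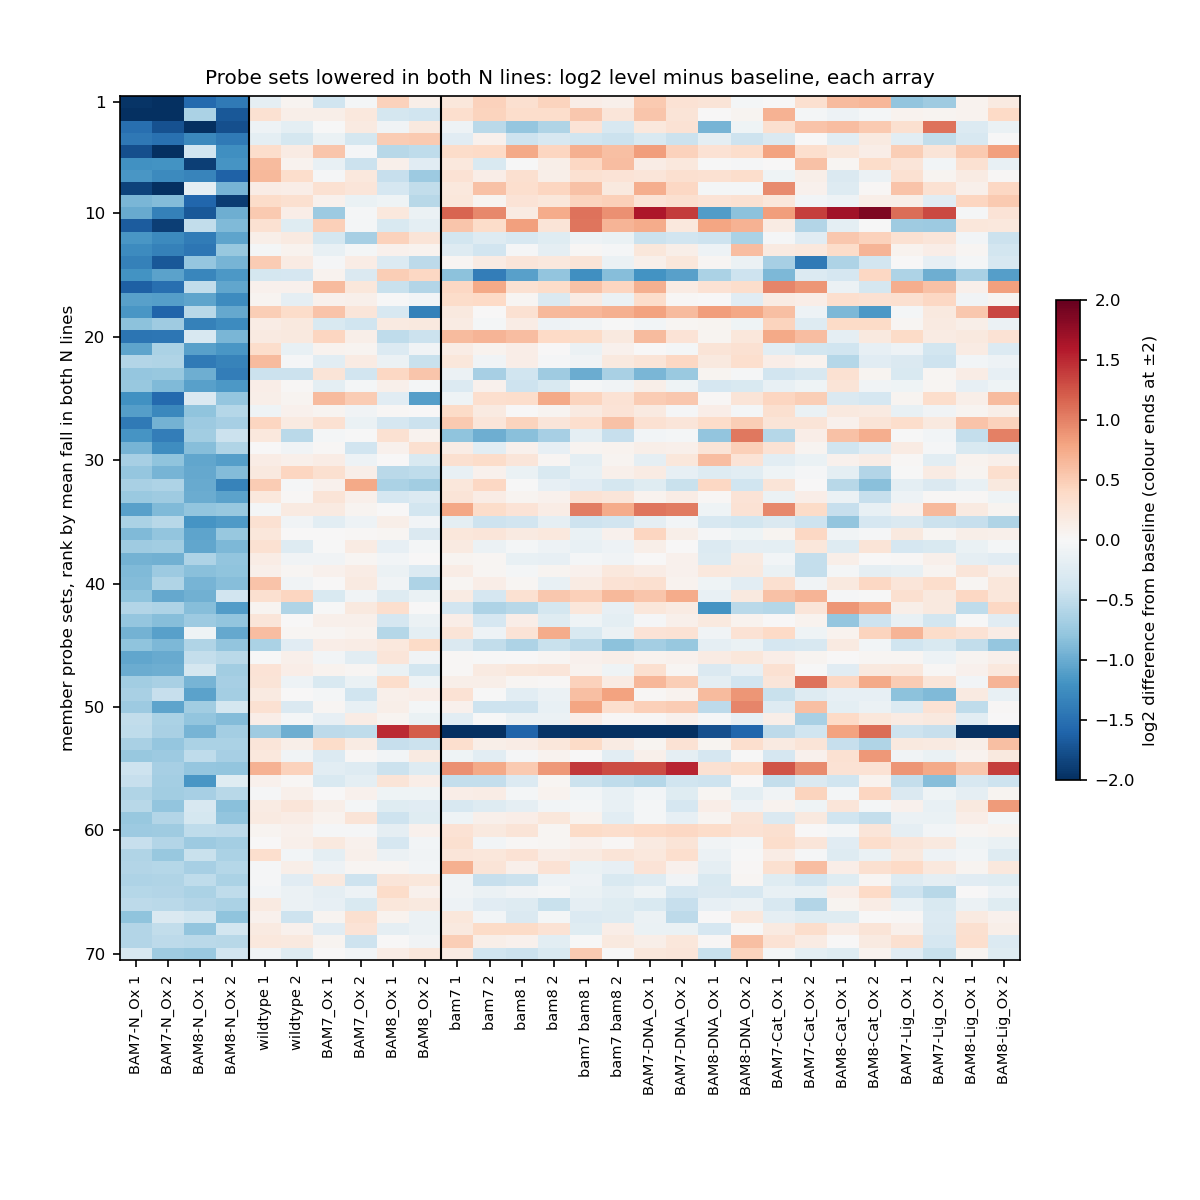
Log2 level minus baseline of each member (rows, ranked by the mean fall in both N lines) on each array (columns), blue for lower and red for higher, with black lines between the 4 N line arrays, the 6 baseline arrays and the 18 arrays outside the selection. Blue fills the N line columns, and in the other columns it is scattered, the darkest row being that of 249894_AT at rank 52.

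For 1 member the name "lowered" holds against the baseline but not against wild type. Probe set 249894_AT was 9.49 and 9.36 in BAM7-N_Ox and 9.08 and 9.33 in BAM8-N_Ox, and 9.30 and 9.04 in wild type. BAM8-N_Ox overlapped wild type, and both BAM7-N_Ox arrays lay above both wild type arrays. It was 9.48 and 9.49 in BAM7_Ox and 11.51 and 11.22 in BAM8_Ox. Its baseline of 10.01 was thus drawn up by BAM8_Ox, and its differences of -0.58 and -0.80 from it follow from that line. The other 69 members lay below wild type in both N lines. With wild type alone as the baseline the selection gave 127 probe sets, of which 60 were among the 70. At 2 members, 252827_AT and 256017_AT, BAM8-N_Ox was not below BAM8_Ox, at 0.13 and 0.05. The 2 were picked out after their values were seen.

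In the fit over all 22746 probe sets, 55 members were called lower than wild type in BAM7-N_Ox (1.21% of all probe sets were called lower) and 52 in BAM8-N_Ox (1.62%). Against the unsuffixed line, 48 were called lower in BAM7-N_Ox (1.56%) and 35 in BAM8-N_Ox (0.703%). A call here is an adjusted p under 0.05 in limma's moderated test, with Benjamini-Hochberg adjustment over all probe sets and a spread pooled over the 14 groups. These comparisons use the arrays that chose the members, and no support is drawn from the counts. No member was called higher in any of the 4.

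The comparisons tested below use only groups that did not enter the selection. A group outside the selection can still resemble one inside it. BAM8_Ox is in the baseline, and its part in the counts that use BAM8-Cat_Ox was not tested. The first asks what the loss of the second gene changed at the members. The members' median difference of bam7 bam8 was 0.00 from bam7 and 0.07 from bam8, against 0.02 and -0.01 over all probe sets. Members lay on both sides of it, with 35 above 0 and 35 below against bam7, and 42 above and 28 below against bam8. A difference of 0.5 or more in size was seen at 15.7% of members against bam7 and 12.9% against bam8, beside 1.78% and 2.15% of the probe sets with a baseline of 5 or more. From bam7 to bam7 bam8, 1 of 70 members was called. The shares called were 0.0747% of all probe sets and 0.136% of those with a baseline of 5 or more. From bam8 to bam7 bam8, 2 of 70 were called, against 0.136% of all probe sets and 0.253% of those with a baseline of 5 or more. Both comparisons share the bam7 bam8 arrays.

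The member called in both was 249894_AT, and no other was called against bam7. As given above, this member was not below wild type in the N lines and entered through BAM8_Ox. The same member is counted below for DNA against Cat in both proteins and for Lig against Cat in BAM8. Its log2 level was 7.03 and 6.71 in bam7, 8.40 and 8.04 in bam8, and 5.40 and 5.60 in bam7 bam8. The double mutant was the lowest group, with no overlap. It was lower than bam7 (-1.37, SE 0.152, limma adjusted p 0.000186) and lower than bam8 (-2.72, SE 0.152, limma adjusted p 9.82e-09). The other call was 250327_AT, at 6.91 and 7.11 in bam7 bam8 and 6.09 and 6.18 in bam8, higher by 0.87 (SE 0.15, limma adjusted p 0.018). Without bam7 replicate 2 the first count was 2. Without any 1 of the 4 arrays the second count was 1, with 250327_AT no longer called at limma adjusted p values from 0.0754 to 0.193. When only the groups compared were fitted, both counts were 0, and 249894_AT had adjusted p values of 0.179 and 0.252 in limma.

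The DNA and Cat forms of each protein were compared next. Members were called in both directions for each protein. Between BAM8-DNA_Ox and BAM8-Cat_Ox, 5 members were called higher and 7 lower, where 0.594% of all probe sets were called higher and 0.928% lower. That made 12 of 70 or 17.1%, against 1.52% of all probe sets and 2.37% of those with a baseline of 5 or more. Between BAM7-DNA_Ox and BAM7-Cat_Ox, 1 was called higher and 1 lower, or 2.86%. This stands against 0.237% of all probe sets and 0.291% of those with a baseline of 5 or more. The median over the members was 0.02 for BAM8 and 0.05 for BAM7, with members on both sides of 0. A difference of 0.5 or more in size was seen at 32.9% of members for BAM8 and at 5.71% for BAM7, against 4.92% and 3.77% of the probe sets with a baseline of 5 or more.

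Probe set 264958_AT showed the largest difference between the BAM8 forms. Its log2 level was 4.76 and 5.06 in BAM8-DNA_Ox and 7.56 and 7.75 in BAM8-Cat_Ox. The values of BAM8-DNA_Ox overlapped those of the N lines, 4.88 and 4.53 in BAM7-N_Ox and 4.19 and 4.90 in BAM8-N_Ox. The difference was -2.75 (SE 0.267, limma adjusted p 1.05e-05), a 6.7-fold lower level. Between the BAM7 forms it was 0.40 (limma adjusted p 0.482), with 7.51 and 7.28 in BAM7-DNA_Ox and 6.72 and 7.27 in BAM7-Cat_Ox. The difference of both differences, -3.14 (95% interval -3.94 to -2.35), passed the test with a limma adjusted p of 0.000443.

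Probe set 256017_AT moved the other way between the BAM8 forms. It was 6.08 and 6.03 in BAM8-DNA_Ox and 4.36 and 4.11 in BAM8-Cat_Ox, higher by 1.83 in the DNA form (SE 0.297, limma adjusted p 0.00281). The level in BAM8-Cat_Ox lay within the range of the N lines, which was 4.09 and 3.66 in BAM7-N_Ox and 4.71 and 4.23 in BAM8-N_Ox. BAM8_Ox was low and spread as well, at 4.94 and 3.91. Probe set 249894_AT was lower in the DNA form of both proteins, by -2.71 for BAM7 and -2.64 for BAM8 (SE 0.152, limma adjusted p 2.14e-08 and 1.11e-08). Between the BAM7 forms the second call was 253040_AT, higher in BAM7-DNA_Ox by 1.21 (SE 0.199, limma adjusted p 0.0176), with 8.87 and 9.0 against 8.10 and 7.36 in BAM7-Cat_Ox. The call of 253040_AT was lost without either replicate of BAM7-DNA_Ox or without BAM7-Cat_Ox replicate 2, each leaving 1 call.

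Single arrays changed these counts. The BAM8 count of 12 was 7 without BAM8-DNA_Ox replicate 1, 6 without BAM8-DNA_Ox replicate 2 and 7 without BAM8-Cat_Ox replicate 2, and it was 3 when only the groups compared were fitted. The BAM7 count of 2 was 7 without BAM7-Cat_Ox replicate 1. The test of the difference between the proteins called 1 member (264958_AT), against 0.171% of all probe sets and 0.233% of those with a baseline of 5 or more. It called 7 without BAM7-Cat_Ox replicate 1, 2 without BAM7-Cat_Ox replicate 2 and 2 without BAM8-DNA_Ox replicate 2. At the other 69 members a difference between the proteins was not shown in the fit of all arrays.

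**Figure D4:**
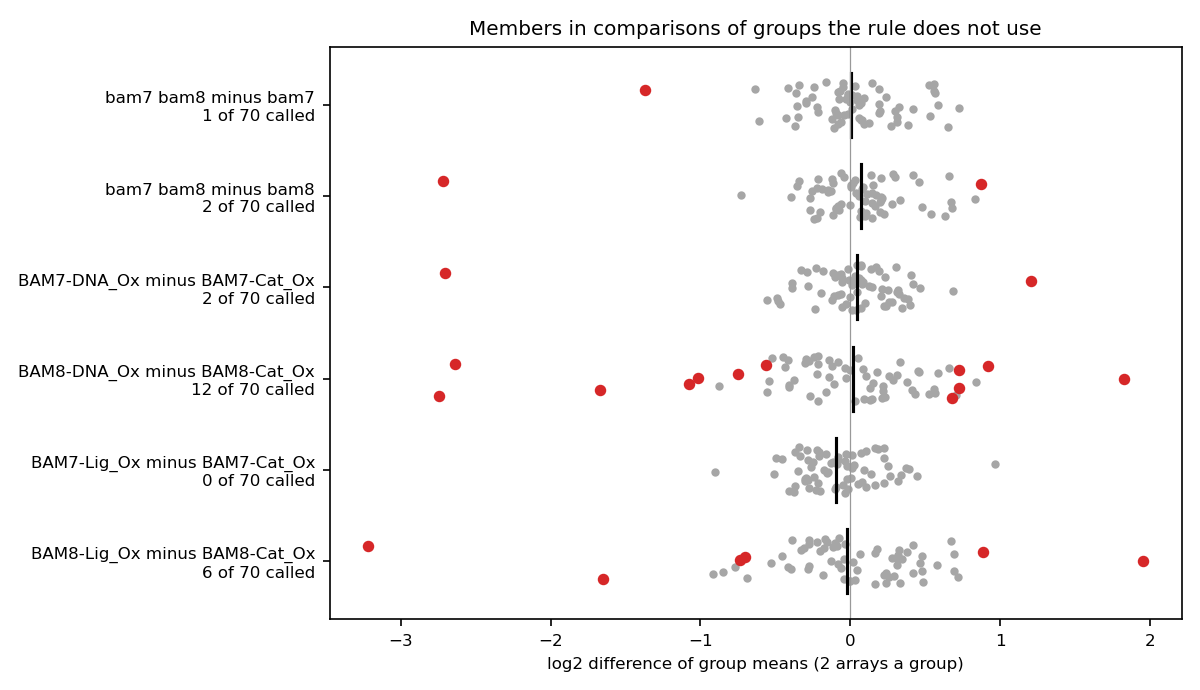
Log2 difference of group means at the 70 members in the 6 comparisons between groups outside the selection, 1 point per member, red where the adjusted p is under 0.05, with a black bar at the members' median. The medians lie between -0.09 and 0.07, and the red points fall on both sides of 0 where several were called.

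The Lig forms were set against the same Cat arrays, which the comparisons with the DNA forms share. Between BAM8-Lig_Ox and BAM8-Cat_Ox, 2 members were called higher and 4 lower, where 0.246% of all probe sets were called higher and 0.501% lower. That made 8.57% of the members, against 0.747% of all probe sets and 1.06% of those with a baseline of 5 or more. Between BAM7-Lig_Ox and BAM7-Cat_Ox limma called 0 of 70 members. It called 0.0132% of all probe sets and 0 of the 10294 with a baseline of 5 or more. The members' medians were -0.02 for BAM8 and -0.09 for BAM7. A difference of 0.5 or more in size was seen at 22.9% of members for BAM8 and at 4.29% for BAM7, beside 3.35% and 3.01% of the probe sets with a baseline of 5 or more. The smallest p between the BAM7 forms was that of 257066_AT, with 7.10 and 7.18 in BAM7-Lig_Ox and 7.89 and 8.20 in BAM7-Cat_Ox (-0.91, SE 0.15, limma adjusted p 0.0519).

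Between BAM8-Lig_Ox and BAM8-Cat_Ox the members with the largest changes were 249894_AT and 256017_AT. The level of 249894_AT was 7.85 and 7.66 in BAM8-Lig_Ox and 10.81 and 11.13 in BAM8-Cat_Ox, a difference of -3.22 (SE 0.152, limma adjusted p 3.81e-10). In the BAM7 forms it was 9.59 and 9.54 against 9.49 and 9.61, a difference of 0.015 (95% interval -0.30 to 0.33). The difference between the proteins was -3.23 (SE 0.214, limma adjusted p 1.19e-07). The level of 256017_AT was 5.79 and 6.59 in BAM8-Lig_Ox, higher than in BAM8-Cat_Ox by 1.96 (SE 0.297, limma adjusted p 0.0024), and 5.22 and 5.45 in BAM7-Lig_Ox against 5.85 and 5.16 in BAM7-Cat_Ox. Without BAM8-Lig_Ox replicate 2, its higher value, the difference was 1.56 (limma adjusted p 0.057). The level of 264958_AT was 5.86 and 6.16 in BAM8-Lig_Ox, between those of the DNA and Cat forms, and lower than in BAM8-Cat_Ox (-1.65, SE 0.267, limma adjusted p 0.00359). Without BAM8-Cat_Ox replicate 2 that adjusted p was 0.0537.

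The test of the difference between the proteins called 4 members for Lig against Cat, 249894_AT among them. The shares called were 0.4% of all probe sets and 0.661% of those with a baseline of 5 or more. The count of 4 was 10 without BAM7-Cat_Ox replicate 1. It was 2 without BAM8-Cat_Ox replicate 2 or either replicate of BAM7-Lig_Ox, and 1 without BAM8-Lig_Ox replicate 2. The count of 6 between the BAM8 forms was 3 without BAM8-Cat_Ox replicate 2, 2 without BAM8-Lig_Ox replicate 2 and 1 when only the groups compared were fitted. The count of 0 between the BAM7 forms was 6 without BAM7-Cat_Ox replicate 1.

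**Figure D5:**
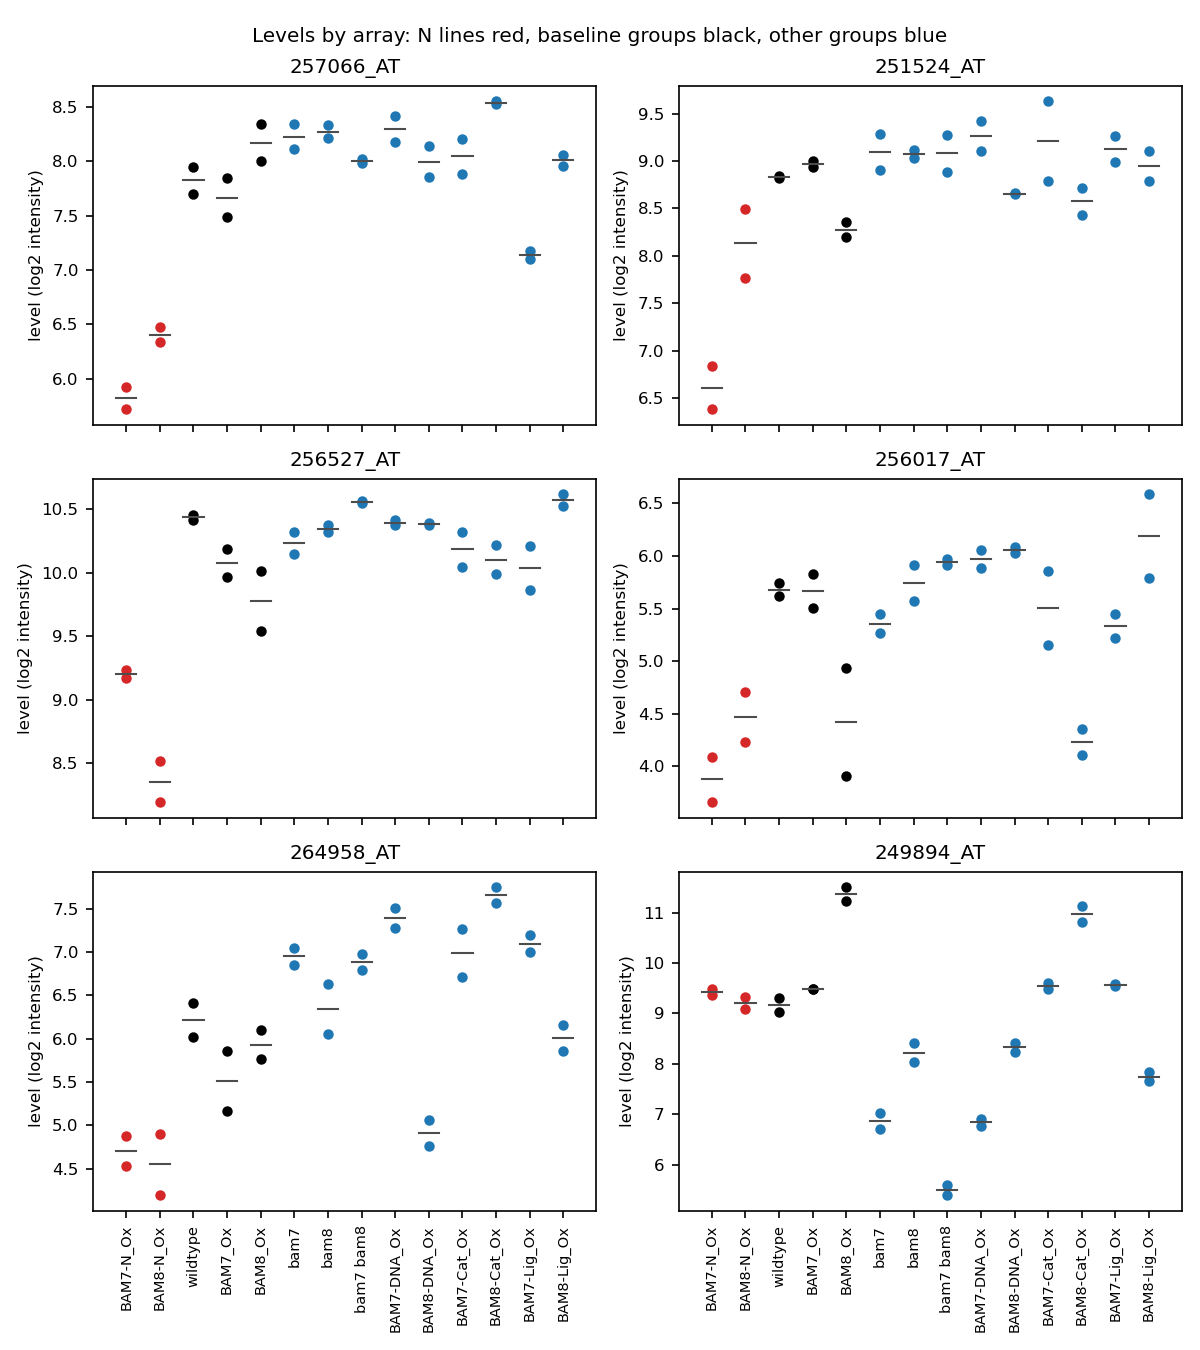
Log2 level of 6 members on each of the 28 arrays by group, with N lines red, baseline groups black, other groups blue and grey bars at the group means. In 257066_AT, 251524_AT and 256527_AT the N lines hold the lowest group means. In 256017_AT the means of BAM8-Cat_Ox and BAM8_Ox lie below that of BAM8-N_Ox. In 264958_AT the arrays of BAM8-DNA_Ox overlap those of the N lines, though its mean is higher, and 249894_AT has its lowest level in bam7 bam8.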

How the data were processed

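Shoot RNA of 28 samples was measured on 1 array each. The authors deposited 1 intensity per probe set and array on a linear scale. The submitters' processing notes name RMA, without a version. Its steps were not checked, and the values carry no detection calls. The number of arrays limits the precision.

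Intensities were put on the log2 scale, and 1 control probe set was left out. Group means were estimated from the 28 arrays together, using limma 3.58.1 under R 4.3.3 (14 residual degrees of freedom, 17.7 in all). The two-sided moderated test was adjusted by Benjamini-Hochberg over 22746 probe sets, with calls at an adjusted p under 0.05, and the fit was tested on simulated data. Replicates are biological per the labels. Figures used matplotlib 3.10.9 in Python 3.11.15.

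The members, lists and comparisons were chosen with earlier results of these data known. The rule for naming took the 25 lowest members in the N lines, the members of gene lists, up to 3 called members per direction and comparison, and probe sets at the threshold. Since probe sets could not be given gene names, at most 2 IDs per direction and comparison are given, beside those picked out after their values were seen (251524_AT, 256527_AT and the choice for the plot of levels). The gene lists, the markers and the motif search in promoters were not run, and no sequence is shown. Alternatives are given in the closing section.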

Additional observations from a re-analysis of the deposited data

Results flagged for a closer look

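The change from the Cat form to another form differed between BAM8 and BAM7 at 5 probe sets by limma's test of the difference itself, given as BAM8 minus BAM7. For DNA against Cat it was -3.14 at 264958_AT. For Lig against Cat it was -3.23 at 249894_AT, -1.13 at 255822_AT, 0.92 at 251642_AT and 2.13 at 256017_AT. Of these, 264958_AT and 249894_AT kept the call in all 15 alternatives, while 255822_AT lost it in 3, 256017_AT in 6 and 251642_AT in 9. Groups of 2 arrays are too small for a test of single samples that stand apart.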

How the results depend on the processing

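The number of members was 71 to 89 with 1 of the 10 arrays of the selection left out, 90 with cyclic loess (all 70 kept), 11 with a fall of 1, and 127 with wild type alone as the baseline. Added after seeing the data, the 18 other arrays as the baseline gave 98, of which 56 were among the 70, and all 24 gave 87, of which 60 were. Fitting only the groups compared gave 0 members for bam7 bam8 against bam7 and against bam8, 0 and 3 for DNA against Cat in BAM7 and BAM8, 1 for BAM8 Lig against Cat, and 1 for the difference between the proteins in Lig against Cat. Array weights gave 4 for bam7 bam8 against bam8, 1 for BAM7 DNA against Cat, and 1 for the Lig difference between the proteins. For BAM7 Lig against Cat the count of 0 became 1 with a variance trend, with cyclic loess and without probe sets ending in _s_at or _x_at. For the DNA difference between the proteins the count of 1 became 2 without the dimmest probe sets (15164 kept) and with a variance trend. The cause of these changes was not tested. Fits of fewer arrays estimate the spread with fewer degrees of freedom, and the part of this was not tested either. With 1 array left out the counts were 1 to 2 for bam7 bam8 against bam7, 1 for it against bam8, 1 to 7 and 6 to 10 for DNA against Cat in BAM7 and BAM8, 0 to 6 and 2 to 8 for Lig against Cat, and 1 to 7 and 1 to 10 for the differences between the proteins in DNA and Lig. A group left with 1 array is assumed to vary like the others. The members' median then ran from -0.102 to 0.131 for BAM8 DNA against Cat and from -0.080 to 0.091 for BAM8 Lig against Cat, so its sign depended on single arrays. Replicate numbers showed no pairing common to all groups. The replicate differences of 91 pairs of groups correlated between -0.38 and 0.43, with a median of 0.01 and 24 pairs above 0.1. Whether some groups share a batch by replicate was not tested. With the replicate number as a block the counts were 1, 2, 2, 13, 0, 6, 1 and 4, in the order of the comparisons above, and 1 call of a named member was lost (251642_AT, limma adjusted p 0.0627). No named member changed sign in any alternative.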
